A study of Mus musculus with 8 samples.

Results

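The genes of MHC class II presentation were examined in whole tibialis anterior (TA) muscles of dystrophin-deficient and normal mice. They were taken by gene symbol and are *H2-Aa*, *H2-Ab1*, *H2-Eb1*, *Cd74*, *H2-DMa*, *H2-DMb1*, *H2-DMb2* and *Ciita*, which are 8 of the 55401 genes in the table of normalized RNA-seq counts. All 8 were found. Total RNA was sequenced from 4 *mdx5cv* and 4 wild-type (WT) libraries, all from male mice of the C57/Bl6 strain at 6 mo of age, with no treatment in either group. *mdx5cv* is a mouse model of Duchenne muscular dystrophy (DMD) kept on the B6 background, in which a germline mutation of the X-linked *Dmd* gene affects every tissue. The labels do not say whether each library came from a separate mouse, so the p-values measure the spread between libraries only.

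MHC class II molecules are pairs of an alpha and a beta chain that carry peptides from endocytosed proteins to the cell surface, where CD4+ T cells read them. The chains fold around the invariant chain CD74, which blocks the groove until lysosomal proteases cut it down to a fragment called CLIP. The H2-DM heterodimer then exchanges CLIP for other peptides. CIITA is the transactivator that assembles on the promoters of all these genes, and its presence largely sets whether a cell makes class II. Macrophages, dendritic cells and B cells are the usual class II cells, whereas resting myofibers make little or none. In a whole muscle, more class II cells and more class II RNA per cell cannot be told apart.

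Recovered reads per library ranged from 13175524 to 14921057. *Dmd*, which is mutated in *mdx5cv*, had 6954 ± 857 normalized counts (SD, n = 4) in WT and 3964 ± 388 in *mdx5cv*, and the groups did not overlap. Its log2 fold change of -0.81 (SE 0.12, limma adjusted p = 0.000177) fell short of the fold threshold used below. Transcripts of skeletal muscle were at high levels in all 8 libraries. Of the 6 muscle genes examined, *Ttn*, *Myh4* and *Acta1* had the highest mean normalized counts, which are not corrected for length. *Ttn* has 116825 exonic bases and *Acta1* 1536. Of these 6, *Mb*, which encodes myoglobin, was called lower in *mdx5cv* (20500 ± 4774 to 6881 ± 1967 normalized counts, SD, n = 4, log2 fold change -1.59, limma adjusted p = 8.97e-05). *Ckm*, *Tnnt3* and *Ttn* had log2 fold changes of -0.75, -0.63 and -0.33 with all *mdx5cv* libraries below WT (limma adjusted p = 0.0227, 0.0277 and 0.637). The part of these changes in the class II values was not tested.

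Class II genes were higher in *mdx5cv* muscle. The 8 genes together took 403 to 793 reads per WT library, or 27.4 to 53.1 RPM (reads per 1000000 recovered reads of the library). In *mdx5cv* they took 2914 to 5513 reads, or 203 to 406 RPM. The test covered 13677 genes whose normalized counts averaged 10 or more. A gene was called where the limma adjusted p was under 0.05 and the log2 fold change was at least 1 in size. Of the 8 genes 7 passed that minimum, and all 7 were called higher. Over all genes tested 10.3% were called higher and 3.27% lower. The median log2 fold change was 2.46 over the 7 genes and 0.00 over all genes tested. In all 7 every *mdx5cv* library lay above every WT library, which was so for 20.3% of all genes tested. None passed the minimum through *mdx5cv* alone, since their lowest WT mean was 11.8.

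**Figure D1:**
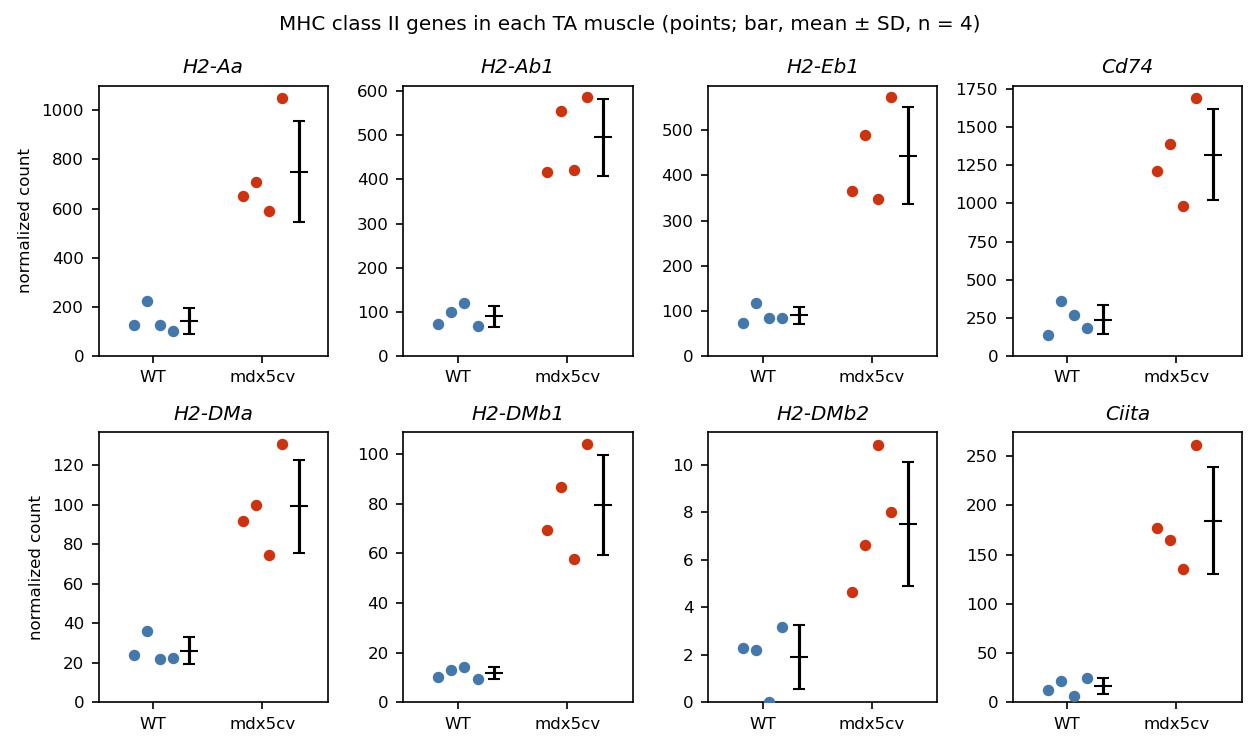
Normalized count (linear axis from 0) of each of the 8 class II genes in each TA muscle, with blue points for WT and red points for mdx5cv, and a black bar with whiskers for the mean ± SD of 4 libraries. In each panel the lowest mdx5cv point lies above the highest WT point, and the panel of H2-DMb2 spans only 0 to 10.8 normalized counts.

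The chains that form the peptide groove rose by similar factors. *H2-Aa*, the alpha chain of the I-A molecule (chromosome 17, 34282744 to 34287823 on the minus strand, GRCm38), had 127, 222, 126 and 102 normalized counts in WT replicates 1 to 4, and 650, 707, 592 and 1051 in *mdx5cv*. WT replicate 2 was the highest of its group and *mdx5cv* replicate 4 the highest of the other. The means were 144 ± 53.0 and 750 ± 206 (SD, n = 4), a 5.27-fold difference on the log2(count + 1) scale, with a log2 fold change of 2.40 (SE 0.22, limma adjusted p = 5.91e-06).

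*H2-Ab1*, the beta chain that pairs with it (chromosome 17, 34257689 to 34269419, plus strand), had 73.3, 99.8, 119 and 68.9 normalized counts in WT and 418, 555, 422 and 586 in *mdx5cv*. Its 5.50-fold difference lay close to that of its partner (log2 fold change 2.46, SE 0.18, limma adjusted p = 1.22e-06). *H2-Eb1*, the beta chain of the I-E molecule (chromosome 17, 34305867 to 34316674, plus strand), had 72.2, 117, 85.1 and 83.7 normalized counts in WT and 365, 490, 349 and 573 in *mdx5cv*. The log2 fold change was 2.29 (SE 0.18, limma adjusted p = 2.09e-06).

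Mice of the C57BL/6 strain are known to carry a promoter deletion in the I-E alpha gene and to lack its RNA. *H2-Ea*, a gene outside the 8, had 0 reads in all 8 libraries. A count of 0 allows up to 3 reads, or 0.201 to 0.228 RPM depending on the library. So reads came from the I-E beta chain in both genotypes and from its alpha partner in neither.

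*Cd74*, the invariant chain, had the highest level of the 8 genes. WT muscles had 140, 358, 268 and 183 normalized counts, and *mdx5cv* muscles had 1212, 1388, 983 and 1692. The WT libraries were spread widely, and the lowest *mdx5cv* library was well above the highest of them. The log2 fold change was 2.53 (SE 0.24, limma adjusted p = 7.52e-06), or 5.79-fold.

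The H2-DM genes encode the peptide editor. *H2-DMa*, its alpha chain (chromosome 17, 34119541 to 34139101, plus strand), had 24.1, 36.2, 22.1 and 22.2 normalized counts in WT and 91.7, 100, 74.7 and 131 in *mdx5cv*. It had the smallest change of the tested class II genes, at a log2 fold change of 1.89 (SE 0.22, limma adjusted p = 2.73e-05). It shares 360 exonic bases with *Brd2* on the opposite strand, which had 674 to 861 reads in WT and 1003 to 1088 in *mdx5cv*. The library kit keeps strand, but the strand setting of the counting is not given in the sources used here.

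*H2-DMb1*, the main beta chain (chromosome 17, 34153072 to 34160230, plus strand), had 10.3, 13.2, 14.4 and 9.53 normalized counts in WT and 69.5, 86.8, 57.6 and 104 in *mdx5cv*. Its log2 fold change was 2.63 (SE 0.24, limma adjusted p = 5.01e-06). *H2-DMb2*, its near copy a few kilobases away (chromosome 17, 34143307 to 34151555, plus strand), had 2.29, 2.19, 0 and 3.18 normalized counts in WT and 4.63, 6.603, 10.8 and 7.99 in *mdx5cv*. The groups did not overlap, but the gene was below the minimum level and was not tested. With no minimum it was called as well (log2 fold change 1.67, limma adjusted p = 0.0284), where 7.73% of 28501 genes were called higher. In a DESeq2 fit to the recovered reads it was also called (log2 fold change 1.97, adjusted p = 0.0467), where 10.1% of 19094 genes were called higher. An edgeR fit called the same 7 genes as limma, where 10.7% of all genes tested were called higher.

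The separate values of the H2-DM beta genes are uncertain. Of the 50-base stretches of *H2-DMb1* transcripts 22.7% also occur in another gene, most often *H2-DMb2*, and 24.8% of those of *H2-DMb2* occur elsewhere, most often in *H2-DMb1*. Reads from these stretches could be split or dropped by the counting. For the 6 other genes the share was at most 0.490%.

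*Ciita*, the transactivator (chromosome 16, 10480059 to 10528418, plus strand), had the largest change of the class II genes. WT muscles had 12.6, 21.9, 6.63 and 24.4 normalized counts, and *mdx5cv* muscles had 177, 165, 135 and 261. The log2 fold change was 3.52 (SE 0.33, limma adjusted p = 6.47e-06), or 11.5-fold. The difference was measured against a low WT level that ranged from 6.63 to 24.4. *Ciita* shares 329 exonic bases with *Dexi* on the opposite strand, whose reads ranged from 140 to 218 in WT and from 197 to 231 in *mdx5cv*.

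The 4 *mdx5cv* libraries were ordered alike by most of the genes. Replicate 4 was the highest for 7 of the 8, the exception being *H2-DMb2*. Replicate 3 was the lowest for *H2-Aa*, *H2-Eb1*, *Cd74*, *H2-DMa*, *H2-DMb1* and *Ciita*.

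Levels were then compared between genes as normalized counts per kilobase of exon. The length was that of all annotated exons of a gene together, from 1679 bases for *Cd74* to 9535 for *Ciita*. Exons that are rarely used lower the value per kb, so the order depends on this length. By normalized count alone, mean *H2-Aa* stood above *H2-Eb1*, and *H2-DMa* above *H2-DMb1*, in both groups. *Cd74* led in WT with 141 ± 57.3 per kb (SD, n = 4). *H2-Eb1*, *H2-Aa* and *H2-Ab1* followed with 46.1 ± 9.98, 37.95 ± 13.9 and 35.2 ± 9.23 per kb, and their WT ranges overlapped. *H2-DMa* and *H2-DMb1* had 7.59 ± 1.96 and 7.05 ± 1.37 per kb, and *Ciita* and *H2-DMb2* had 1.72 ± 0.865 and 1.10 ± 0.774. The WT ranges were separate between *Cd74* and *H2-Eb1*, between *H2-Ab1* and *H2-DMa*, and between *H2-DMb1* and *Ciita*, whereas those of *Ciita* and *H2-DMb2* overlapped.

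In *mdx5cv* the levels per kb were 785 ± 178 for *Cd74*, 228 ± 54.8 for *H2-Eb1*, 197 ± 54.3 for *H2-Aa* and 193 ± 34.1 for *H2-Ab1*. The order was kept except that *H2-DMb1* (47.3 ± 12.0 per kb) now stood above *H2-DMa* (28.8 ± 6.84), with overlapping ranges. *Ciita* had 19.4 ± 5.67 and *H2-DMb2* 4.30 ± 1.49 per kb. *Ciita* overlapped *H2-DMb2* in WT and *H2-DMa* in *mdx5cv*, where it was apart from *H2-DMb2*.

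**Figure D2:**
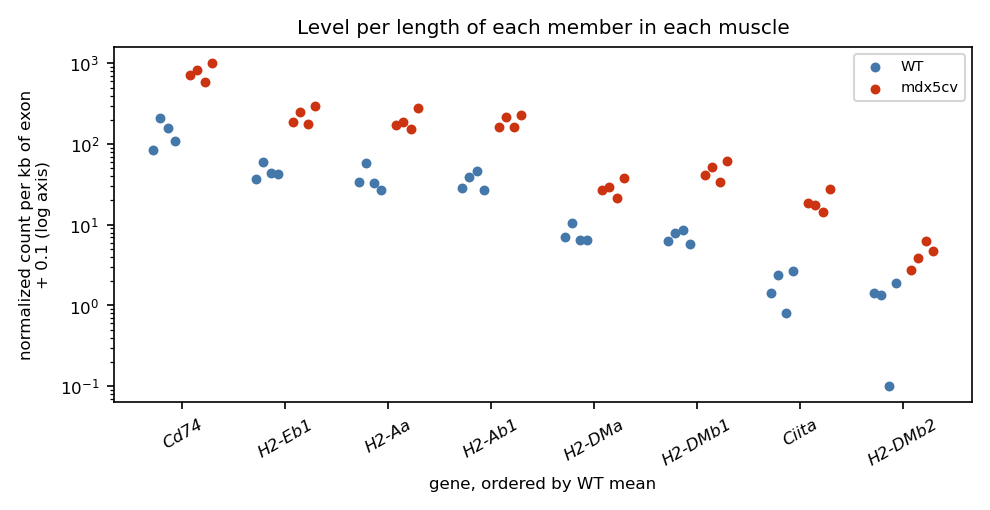
Normalized count per kilobase of exon, plus a small offset so that 0 can be drawn (log axis), of each class II gene in each muscle, blue for WT and red for mdx5cv, with genes ordered by their WT mean. Cd74 stands alone at the top in both groups, and Ciita lies beside H2-DMb2 in WT and beside H2-DMa in mdx5cv.

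The proportions between members were tested by an exact permutation test over the 8 libraries, two-sided, of the mean log2 ratio. With 4 against 4 the smallest p is 0.0286, and 7 ratios were compared. Relative to *H2-Ab1*, the *mdx5cv* minus WT difference in log2 ratio was -0.06 for *H2-Aa*, -0.17 for *H2-Eb1* and 0.07 for *Cd74*. These were smaller than the SD of the ratio in WT, which was 0.45, 0.35 and 0.39. The ratio of *H2-DMa* to *H2-DMb1* was 1.15, 1.39, 0.59 and 1.14 in WT and 0.40, 0.20, 0.37 and 0.33 in *mdx5cv* on the log2 scale, with no overlap. That difference of -0.74 had the smallest p the exact test allows (0.0286) and did not pass after adjustment over the 7 (0.20). A ratio can pass here only if most of the 7 reach the smallest p together. Not passing therefore does not show that proportions were kept. *Ciita* over *H2-Ab1* differed by 1.06 (exact permutation p = 0.0857, adjusted 0.20).

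Class II promoters are known to share a compact module of X and Y boxes, bound by the RFX complex and by NF-Y, on which CIITA assembles. The promoter windows of RefSeq (GRCm38.p6, from 250 bases before to 50 after each start) cover 5 of the 8 genes, namely *H2-Aa*, *H2-Eb1*, *H2-DMa*, *H2-DMb1* and *H2-DMb2*. These windows were searched on both strands for the Y box letters GATTGG and, within them, the core ATTGG, and for an X1 letter pattern of the form AGNNACNGA. The stretches below are shown to compare the letters around GATTGG in 4 of these genes. Each is aligned on GATTGG and written 5′ to 3′ on the strand of its gene, with matches on that strand in capitals.

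H2-Aa, chr17:34287837-34287942, minus strand: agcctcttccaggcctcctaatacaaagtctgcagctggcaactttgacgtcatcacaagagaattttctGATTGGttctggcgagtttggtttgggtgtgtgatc
H2-Eb1, chr17:34305737-34305842, plus strand: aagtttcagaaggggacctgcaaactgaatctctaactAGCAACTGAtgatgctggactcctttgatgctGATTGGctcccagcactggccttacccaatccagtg
H2-DMb1, chr17:34153059-34153164, plus strand: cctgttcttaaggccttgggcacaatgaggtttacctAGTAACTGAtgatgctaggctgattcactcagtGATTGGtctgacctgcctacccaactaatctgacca
H2-DMb2, chr17:34145088-34145193, plus strand: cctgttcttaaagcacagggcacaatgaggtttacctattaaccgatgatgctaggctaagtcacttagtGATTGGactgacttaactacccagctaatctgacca

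GATTGG began 49 bases before the start in *H2-Aa*, 60 in *H2-Eb1*, 62 in *H2-DMb1* and 91 in *H2-DMb2*. These starts are those of RefSeq and can differ from the GENCODE gene positions given above. The *H2-DMb2* stretch lies inside its GENCODE gene (from 34143307), and the *H2-DMb1* stretch lies partly inside its own (from 34153072). *H2-Eb1* also held GATTGG on the opposite strand, read as CCAATC from 35 bases before the start and left in lower case. *H2-DMa* has 2 windows, of which 1 held GATTGG 199 bases before the start and the other held none of the patterns. GATTGG was in 16.1% of all 32851 windows, the core ATTGG in 37.4% and the X1 pattern in 17.7%, so a match is no more than a description. The X1 pattern was matched on the strand of the gene in *H2-Eb1* and *H2-DMb1*, beginning 92 and 95 bases before the start. An X1 match that begins 32 or 33 bases before a GATTGG on the same strand was found in 4 of the 32851 windows (0.0122%), those of *H2-Eb1*, *H2-DMb1*, *H2-Eb2* and *Gm41048*. That spacing was chosen after the windows of *H2-Eb1* and *H2-DMb1* had been seen.

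The stretches of *H2-DMb1* and *H2-DMb2* were identical at 92 of 106 bases (86.8%), and those of other pairs at 28 to 33 of 106. Of their 14 differences 2 lie within the 9 X1 letters of *H2-DMb1*, and they are G39T and T44C, with the base of *H2-DMb1* first and positions counted from 1 at the 5′ end of the stretch. In these libraries *H2-DMb2* had the lowest level per kb of the 8 genes in both groups, and a link of these differences to its level was not tested. The X1 pattern was also unmatched in *H2-Aa* and *H2-DMa*.

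Beyond the 8 genes, the remaining class II genes of the table were close to absent. *H2-Oa* and *H2-Ob*, which encode the H2-DO dimer that restrains H2-DM, had means of 0.561 and 4.72 normalized counts in WT and 2.12 and 8.65 in *mdx5cv*, with overlapping groups. *H2-Eb2* had 0 reads in WT and 2.78, 1.89, 0 and 4.79 normalized counts in *mdx5cv*. None of these, nor *H2-Ea*, reached the minimum for the limma test. With no minimum, limma called *H2-Eb2* higher (log2 fold change 1.496, adjusted p = 0.0249), and *H2-Oa* and *H2-Ob* were not called (adjusted p = 0.295 and 0.224). DESeq2 called 0 of these genes, with 1 at an unadjusted p under 0.05, and gave *H2-Eb2* no adjusted p.

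Most genes of antigen processing and class II turnover were higher in *mdx5cv*. All 11 listed genes were tested, and 7 were called higher and 0 lower by limma, edgeR and DESeq2 alike. Over all genes tested, these tools called 10.3%, 10.7% and 10.1% higher. The median log2 fold change of the 11 was 2.17. *Ctss* encodes cathepsin S, the protease that makes the last cuts in the invariant chain. It had 26.4, 29.6, 26.5 and 44.5 normalized counts in WT and 999, 867, 645 and 1905 in *mdx5cv*. Its log2 fold change of 4.99 (SE 0.27, limma adjusted p = 1.71e-07) was above that of each class II gene.

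*Ifi30*, the lysosomal thiol reductase GILT, rose by a log2 fold change of 2.49 (limma adjusted p = 5.17e-06). The endopeptidase legumain, *Lgmn*, rose by 2.17 and *Ctsh*, cathepsin H, by 2.24 (limma adjusted p = 5.69e-06 and 3.10e-05). *Marchf1*, the ubiquitin ligase that removes class II from the surface, rose by 2.20, and *Cd83*, which opposes it, by 2.32 (limma adjusted p = 0.000321 and 0.000276). *Ctsb*, cathepsin B, rose by 1.11 (limma adjusted p = 0.000223), and by 0.93, under the fold threshold, without *mdx5cv* replicate 4.

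The other 4 genes of processing were not called. *Ctsl*, cathepsin L, had a log2 fold change of 0.95, which passed the threshold without *mdx5cv* replicate 2 or 3 (1.02 each), and *Ctsd*, cathepsin D, of 0.18 (limma adjusted p = 8.73e-05 and 0.296). *Marchf8*, a relative of *Marchf1*, had 0.03 (limma adjusted p = 0.847). *Sppl2a*, the intramembrane protease that clears the last stub of the invariant chain, had 1434, 1543, 1519 and 1264 normalized counts in WT and 959, 1026, 939 and 931 in *mdx5cv*. All its *mdx5cv* values lay below WT (log2 fold change -0.58, limma adjusted p = 0.000481), without reaching the fold threshold.

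The factors that act with or upstream of CIITA had smaller log2 fold changes than *Ciita* itself. Of 13 listed genes 12 were tested and 0 were called by limma, edgeR or DESeq2, although 7 had an unadjusted p under 0.05 by each tool. A limma adjusted p under 0.05 was reached by 6 of the 12, and by 5597 of the 13677 genes tested. The median log2 fold change of the 12 was -0.04. In the RFX complex, *Rfx5* had 0.41, *Rfxank* 0.11 and *Rfxap* -0.63 (limma adjusted p = 0.0682, 0.584 and 0.0140). In NF-Y, *Nfya* had a log2 fold change of 0.68, *Nfyb* of -0.38 and *Nfyc* of -0.13 (limma adjusted p = 0.0212, 0.135 and 0.533).

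The interferon gamma pathway is the best known inducer of *Ciita*. *Ifng* had 0 reads in 7 libraries and 1 read in *mdx5cv* replicate 3, which limits what can be said of it at this depth. *Irf1*, an early target, had a log2 fold change of 0.73 with no overlap between groups (limma adjusted p = 0.00778). *Jak2* had -0.74 and *Jak1* -0.26, with all *mdx5cv* libraries below WT (limma adjusted p = 0.000965 and 0.0397). *Ifngr1* had 0.41 and *Ifngr2* -0.07 (limma adjusted p = 0.0323 and 0.610). With libraries scaled to equal totals, the median over all genes tested stood at a log2 fold change of 0.36. Under that scaling *Irf1* and *Nfya* were called higher, and *Jak1* turned to 0.09, *Creb1* to 0.35, *Nfyc* to 0.22 and *Ifngr2* to 0.28, each below the shift of the median.

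**Figure D3:**
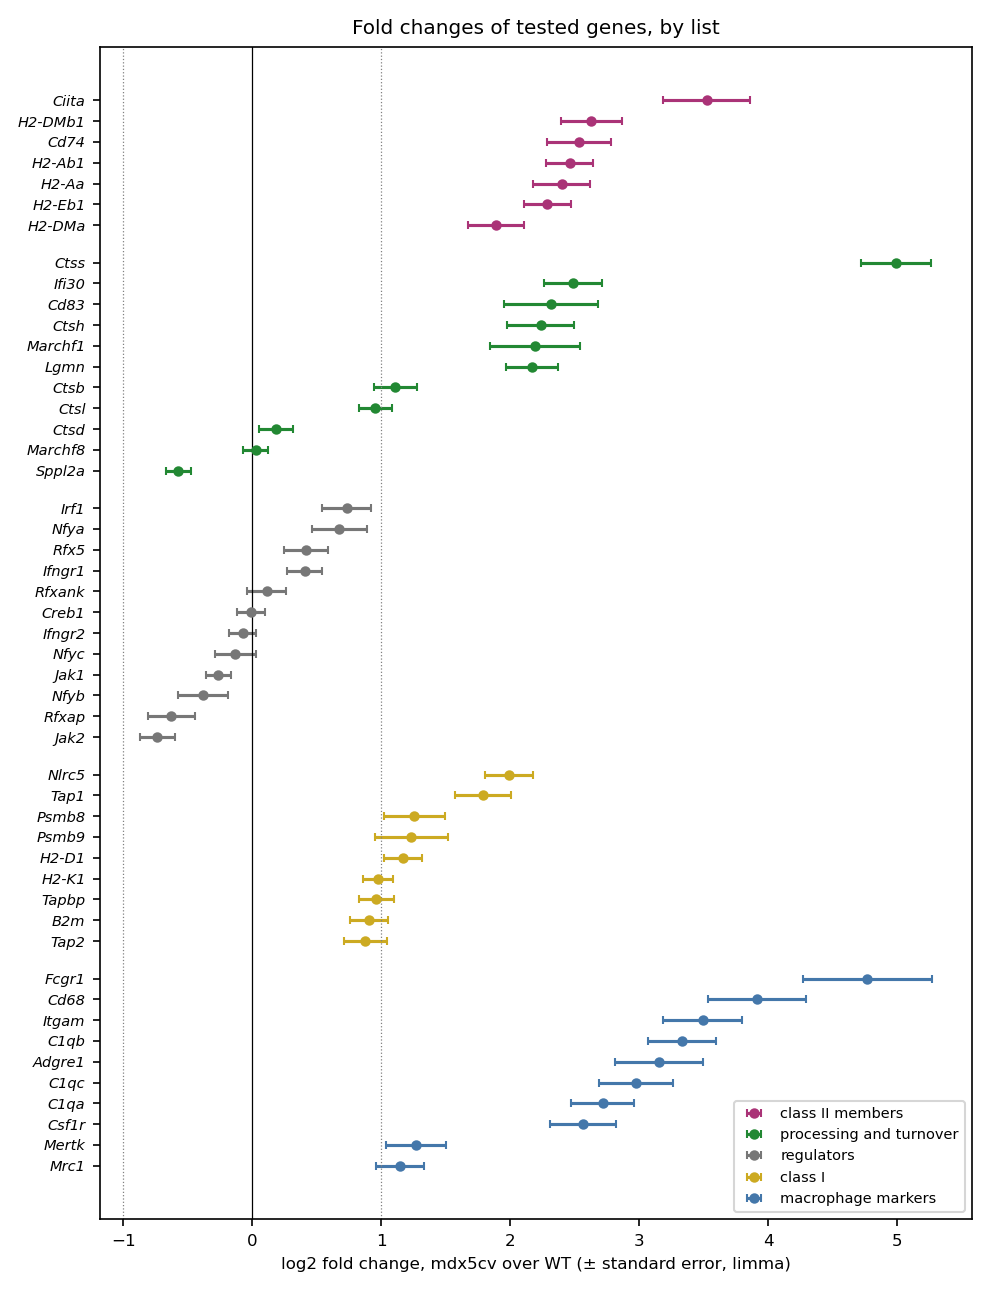
Log2 fold change of mdx5cv over WT with its standard error from limma (x axis) for each tested gene of 5 lists, with dotted lines at a log2 fold change of -1 and 1. The 7 tested class II genes lie between 1.89 and 3.52, the 12 regulators between -0.74 and 0.73, the 9 class I genes between 0.88 and 1.99 and the 10 macrophage markers between 1.15 and 4.77.

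A class II molecule activates a T cell only together with costimulation. *Cd86* and *Cd40* were called higher, with log2 fold changes of 1.70 and 1.34 (limma adjusted p = 0.0156 and 0.00922), at means of 6.06 and 5.74 normalized counts in WT and 19.14 and 16.04 in *mdx5cv*. The groups overlapped for *Cd86*, which was not called without *mdx5cv* replicate 4 (log2 fold change 1.44, limma adjusted p = 0.0539). Both genes passed the minimum level through *mdx5cv*, and with a pseudocount of 10 neither reached the fold threshold (0.86 and 0.72). *Cd80* was below the minimum, with 1.65 ± 0.641 normalized counts in WT against 13.9 ± 3.03 in *mdx5cv* (SD, n = 4), without overlap, and was called higher by limma with no minimum and by DESeq2 (log2 fold change 2.49 and 3.07).

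CD74 at the cell surface is also a receptor for the cytokine MIF, acting with CD44, CXCR4 or CXCR2. *Cd44* and *Cxcr4* were called higher (log2 fold change 2.84 and 2.11, limma adjusted p = 1.50e-06 and 1.15e-05). *Mif* had 186 ± 43.2 normalized counts in WT against 224 ± 21.7 in *mdx5cv* (SD, n = 4, limma adjusted p = 0.164), and *Cxcr2* had at most 1.11 in any library.

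The class I pathway, which presents peptides from inside the cell and is made by nearly all cell types, was also higher in *mdx5cv*. All 9 listed genes had every *mdx5cv* library above every WT library, which was so for 20.3% of all genes tested. All 9 had a limma adjusted p under 0.05, as did 5597 of the 13677 genes tested. Of the 9, 5 were called higher, against 10.3% of all genes tested. The median log2 fold change over all 9 was 1.17. *H2-D1* had the highest mean normalized count of the 9 over all 8 libraries, without correction for length. It rose from 620 ± 125 to 1381 ± 188 normalized counts (SD, n = 4, log2 fold change 1.17). *B2m* and *H2-K1* had log2 fold changes of 0.90 and 0.97, just under the threshold, and both passed it without *mdx5cv* replicate 3 (1.002 and 1.006). *H2-K1* also passed without WT replicate 2 (1.02) or 3 (1.04), and *Tapbp* (0.96) without WT replicate 4 (1.04) or *mdx5cv* replicate 1 (1.03) or 3 (1.02). *Nlrc5*, the class I counterpart of *Ciita*, rose by 1.99. The difference between the class I and class II lists was not tested.

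Leukocyte markers moved with the class II genes. *Ptprc*, the pan-leukocyte gene that encodes CD45, had 55.0, 74.6, 63.0 and 57.2 normalized counts in WT and 652, 557, 391 and 1071 in *mdx5cv* (log2 fold change 3.31, SE 0.24, limma adjusted p = 9.09e-07). All 10 macrophage markers were called higher (median log2 fold change 3.07), against 10.3% of all genes tested. Of the 10, *Fcgr1* and *Itgam* passed the minimum level through *mdx5cv* (WT means 1.64 and 3.88). The summed level of the 10 was 446 to 712 normalized counts in WT and 2408 to 5768 in *mdx5cv*. The markers with the highest mean normalized count over all 8 libraries, without correction for length, were *Csf1r*, *Mrc1* and *C1qb*. Their log2 fold changes were 2.56, 1.15 and 3.34. *Mrc1* fell under the fold threshold without *mdx5cv* replicate 4 (0.95). None of the defining macrophage markers was at 0 in *mdx5cv*. *mdx5cv* replicate 4 had the highest value of all 10 markers and of *Ptprc*, as it had for 7 of the class II genes.

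Among 8 dendritic cell markers 3 were tested and 1, *Itgax*, was called higher (5.22 ± 3.26 to 317 ± 151 normalized counts, SD, n = 4, log2 fold change 5.78). *Itgax* is also expressed by macrophages, and it passed the minimum level through *mdx5cv*. *Zbtb46* (114 ± 21.0 and 117 ± 10.4) and *Cd209a* (9.83 ± 5.93 and 11.5 ± 0.878) did not pass the test. *Xcr1* was at 0 in WT and had 2.70 to 8.79 normalized counts in *mdx5cv*. *Clec9a*, *Flt3* and *Ccr7* were also low, with no overlap between groups. With no minimum limma called these 4 genes higher as well, as did DESeq2, which called 5 of the 8 markers. *Siglech*, *Zbtb46* and *Cd209a* were not called in that limma fit (adjusted p = 0.610, 0.847 and 0.610). Over all genes, 7.73% were called higher by limma with no minimum and 10.1% by DESeq2. The summed level of the list was 118 to 162 in WT and 379 to 750 in *mdx5cv*. *Itgax* alone had 1.10 to 8.85 normalized counts in WT and 215 to 539 in *mdx5cv*.

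Lymphocyte markers were scarce. Of 5 B cell markers only *Cd22* was tested, and it was called higher (2.77 ± 1.48 to 28.3 ± 9.50 normalized counts, SD, n = 4), having passed the minimum through *mdx5cv*. The other 4, which are *Ms4a1*, *Cd79a*, *Cd79b* and *Pax5*, had means of at most 5.23 in either group and overlapped. Their summed level with *Cd22* was 6.63 to 17.5 in WT and 25.2 to 51.9 in *mdx5cv*, where *Cd22* alone had 1.11 to 4.58 and 18.9 to 38.4. None of the 7 T cell markers reached the minimum for limma, with a sum of 6.63 to 9.87 in WT and 32.4 to 55.9 in *mdx5cv*. *Cd4*, the co-receptor for class II, had 0, 3.29, 1.11 and 3.18 normalized counts in WT and 9.26, 15.1, 13.5 and 26.4 in *mdx5cv*. With no minimum limma called *Cd3e*, *Cd3g*, *Cd4* and *Lck* higher (log2 fold change 2.42, 1.69, 2.69 and 1.97), and DESeq2 called *Cd3e* and *Cd4*. In that limma fit *Cd3d*, *Trac* and *Lag3* were not called (adjusted p = 0.411, 0.152 and 0.126). Over all genes, 7.73% were called higher by limma with no minimum and 10.1% by DESeq2. Myeloid cells can also carry *Cd4*. The part of each cell type in the class II values was not tested.

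**Figure D4:**
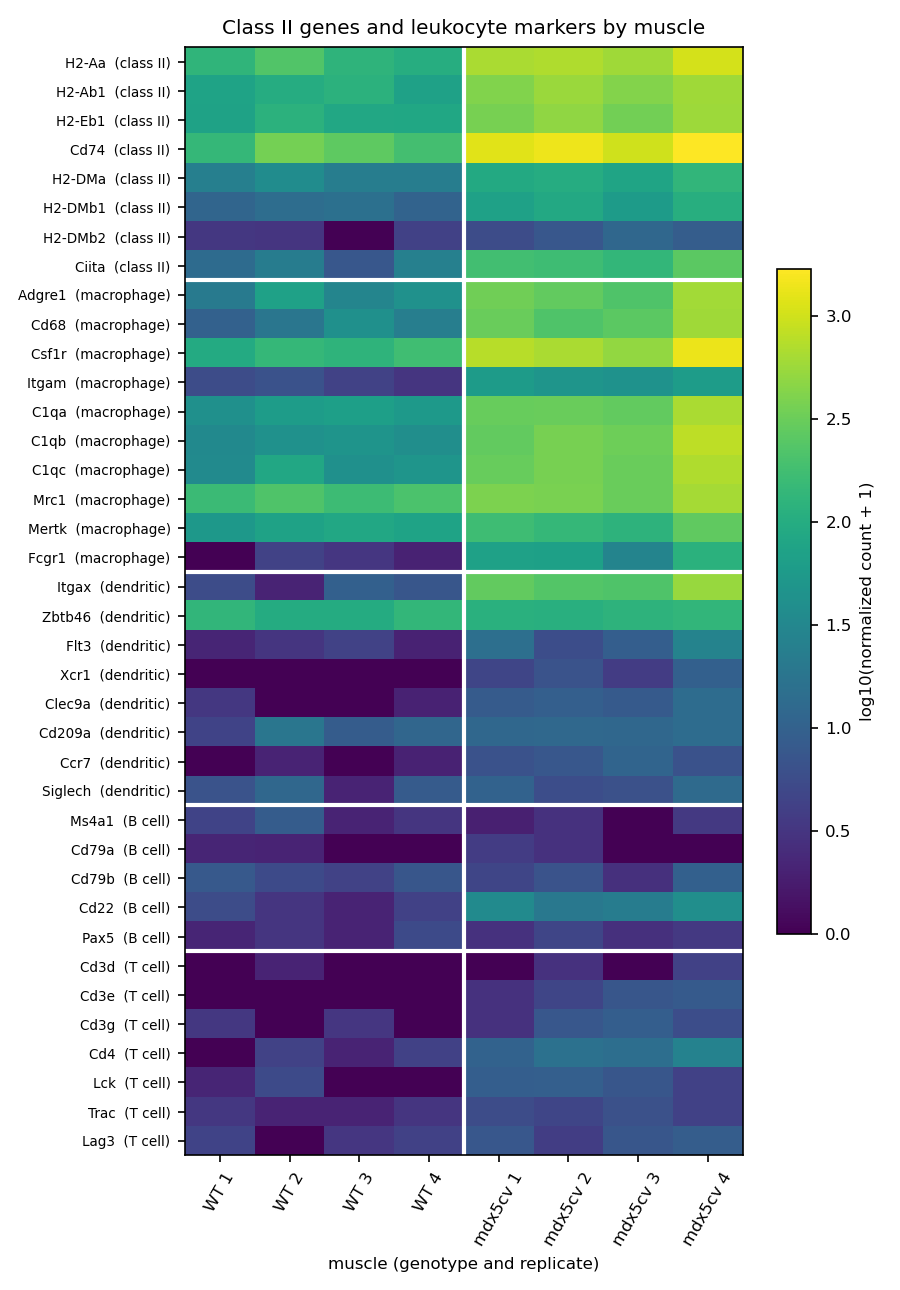
Heat map of log10(normalized count + 1) for the class II genes and the markers of macrophages, dendritic cells, B cells and T cells (y axis) in each of the 8 libraries (x axis), with WT on the left of the white line. The mdx5cv columns are brighter for the class II and macrophage genes, and most B and T cell markers stay near 0 in all columns.

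Endothelial cells can also carry class II. The log2 fold changes of all 4 endothelial markers were negative, from -0.89 to -0.61, with a limma adjusted p under 0.05, and 0 were called by limma, edgeR or DESeq2. A limma adjusted p under 0.05, in either direction, was reached by 5597 of the 13677 genes tested. The 4 genes of regenerating fibers were all called higher, against 10.3% of all genes tested. Of the 4, *Mymk*, with a WT mean of 0.265, passed the minimum through *mdx5cv*. *Myh3*, embryonic myosin, had 39.9 ± 7.43 normalized counts in WT and 3101 ± 2096 in *mdx5cv* (SD, n = 4).

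Class II genes were then set against a leukocyte marker in the same muscle, which asks whether they differed between genotypes by more or less than the marker did. The log2 ratio to *Ptprc* of *H2-Ab1* was 0.41, 0.42, 0.91 and 0.26 in WT and -0.64, -0.01, 0.11 and -0.87 in *mdx5cv*. The *mdx5cv* libraries were all below WT, by 0.85 on average. For *H2-Aa*, *H2-Eb1*, *Cd74*, *H2-DMa* and *H2-DMb1* the difference ranged from -1.43 to -0.68. Each of these 6 had an exact permutation p of 0.0286, the smallest possible, and an adjusted p of 0.0571 over 16 ratios, so none passed. A ratio could pass here only if most of the 16 reached the smallest p together. Not passing therefore does not show that a ratio was alike in the groups. For *Cd74* the lowest WT and the highest *mdx5cv* library were both at 1.33. The ratio of *Ciita* to *Ptprc* differed by 0.21 (exact permutation p = 0.743), a value under the SD of 0.79 in WT.

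Relative to *Cd68*, a lysosomal protein of macrophages, all 8 genes had a negative mean difference, from -2.24 for *H2-DMb2* to -0.39 for *Ciita*. None passed after adjustment. The direction depends on the marker, since *Mrc1* and *Mertk* had log2 fold changes of 1.15 and 1.27, smaller than those of all 7 tested class II genes.

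**Figure D5:**
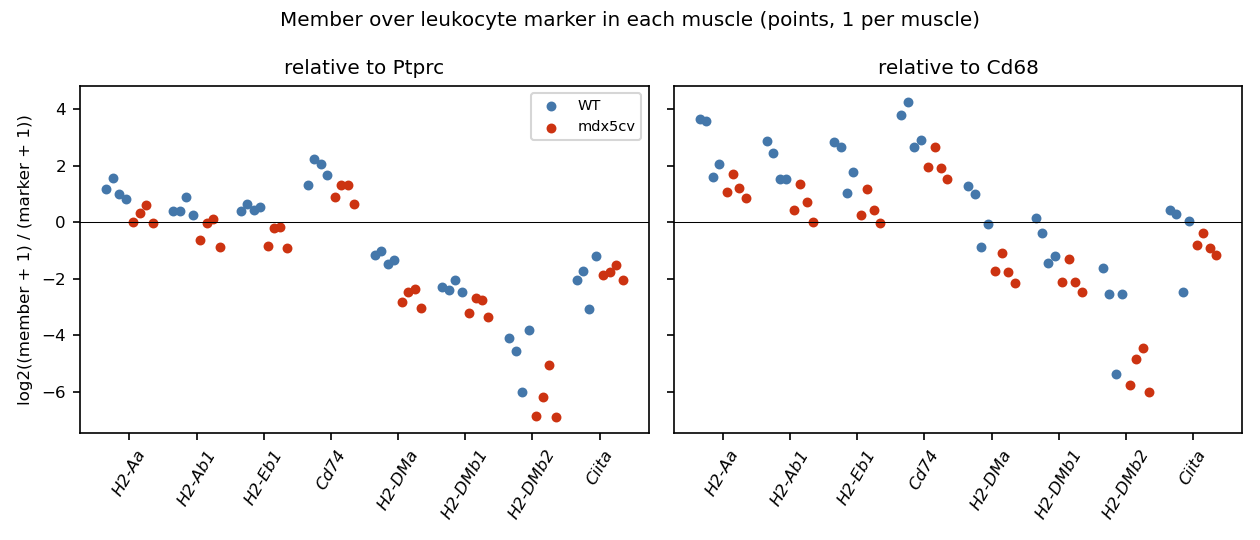
Log2 ratio of each class II gene to Ptprc (left) and to Cd68 (right), with 1 added to both values, in each muscle, blue for WT and red for mdx5cv. Relative to Ptprc the red points lie below the blue ones for the 6 genes from H2-Aa to H2-DMb1, and they fall among them for Ciita.

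Variation within the groups was described last. For each of 7641 genes averaging 100 normalized counts or more, the log2 value centred on its group mean was correlated over the 8 libraries with the centred mean of the 7 tested class II genes. The libraries share depth and scaling, so the coefficients are a description. The class II genes were left out of the ranking, since 7 of them form the mean. The 10 other genes most alike were *Rpl12* (Pearson r = 0.97), *Tlr4*, *Rps12*, *Rpl10a*, *Npc2*, *Creb1*, *Selenop*, *Synj1*, *C1qc* and *Inpp5d* (r = 0.95). Of these *Tlr4*, *Npc2*, *C1qc* and *Inpp5d* had log2 fold changes of 1.11, 1.06, 2.98 and 2.11, while the ribosomal protein genes *Rpl12*, *Rps12* and *Rpl10a* had -0.15, -0.01 and -0.08. The coefficient was 0.84 for *Ptprc*, 0.70 for *Csf1r*, 0.38 for *Cd68* and -0.15 for *Itgax*, and it was 0.93 for the class I gene *B2m*. Among the class II genes it ran from 0.53 for *Ciita* to 0.98 for *H2-Eb1*, and it was -0.01 for *H2-DMb2*, which was not part of the mean.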

How the data were processed

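RNA-seq of 4 *mdx5cv* and 4 WT libraries of whole TA muscle from male mice was analysed. The values the authors deposited are a signal for each gene: its read count over the size factor of the library. The submitters' processing notes name FastQC, Trim Galore 0.6.4, STAR 2.6.0c, SAMtools 1.9, featureCounts, MultiQC 1.6, DESeq2 1.26.0, R 3.6.2 and mm10, and the annotation is not given in the sources used here. Whole reads were recovered from 100.0% of values, within 0.01 of a whole number.

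The main test was limma-trend (limma 3.58.1, R 4.3.3), two-sided, fitted to log2(normalized count + 1). Adjustment was by Benjamini-Hochberg over 13677 genes. This scale understates changes of low genes. edgeR 4.0.16 and DESeq2 1.42.0 were run on recovered reads as alternatives. Ratios were compared by exact permutation (70 arrangements) in Python 3.11.15 with scipy 1.17.1. Positions and exon lengths are those of GENCODE M21 (GRCm38), which holds 55141 of the gene IDs. The scripts were tested on simulated data. The members and lists were chosen with earlier results of these data known, and 2 listed genes are not reported here. Named are all 8 members, called genes of the class II pathway lists and the 10 other genes most alike within groups. From the class I and marker lists, up to 3 genes with the highest mean normalized count over all libraries are named. Further genes were named after their values were seen.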

Additional observations from a re-analysis of the deposited data

Results flagged for a closer look

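*H2-DMa* in WT replicate 2 stood apart from the other WT libraries, at 36.2 normalized counts against 22.1 to 24.1. The gap to the nearest library was 0.83 of the range of the group, just past the critical value for 4 samples. Of 16 sets of 4 libraries tested in this way, 1 was picked out, and chance gives 0.80. The log2 fold change of *H2-DMa* stayed between 1.75 and 2.05 when any library was left out.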

How the results depend on the processing

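All 7 class II genes were called under every setting that tested them, which were 124 fits of single genes over 18 settings, with log2 fold changes from 1.59 to 3.87 and an adjusted p of at most 0.000366. The number called was 5 with at least 10 normalized counts required in every library, where *Ciita* and *H2-DMb1* were not tested, 8 with no minimum and with DESeq2, and 7 when any library was left out. Pathway genes called higher numbered 16 of 37 tested, and 14 to 20 with a library left out, with 0 lower in every setting. The fewest were 12, with at least 10 in every library, where 33 were tested. The most were 23, with libraries scaled to equal totals. Under that scaling 2256 of the 13677 genes tested were called higher, against 1414 in the main fit. Marker genes called higher numbered 17 of 29 tested, and 16 to 17 with a library left out. They numbered 11 of 22 with at least 10 in every library, 25 of 45 with no minimum and 23 of 43 with DESeq2. Over all genes tested, 10.3% were called higher in the main fit, 7.73% with no minimum and 10.1% with DESeq2. With at least 10 in every library it was 729 of 11784 genes. In each setting 1 marker gene, *Mb*, was called lower. With a pseudocount of 10 the log2 ratio of *Ciita* to *Ptprc* turned from 0.21 to -0.24, and leaving out a library moved it from -0.14 to 0.48. With 3 libraries against 4, no ratio could pass. Same-numbered libraries of the 2 groups were only weakly alike (r 0.05, 0.03, 0.07 and 0.15), with numbers 3 and 4 matching best with themselves. Whether the numbers pair the libraries was not tested. A fit with the replicate number as a block called 7 class II genes. Depth limits *H2-DMb2*, *Ifng* and the lymphocyte markers.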
